A study of Mus musculus with 8 samples.

Results

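The genes described here belong to the red cell and its haem: the rate-limiting enzymes of haem synthesis Alas1 and Alas2, the globins Hba-a1 and Hbb (Hbb-b1 and Hbb-bt), the globin chaperone Ahsp, the red cell anion exchanger Slc4a1 and the erythroid transcription factor Klf1. They were measured by every non-control probe whose gene name, or current symbol by its accession, was one of the 8 names, which gave 11 of 41174 gene probes. Liver RNA of ICR scid mice, 8 wk old, was hybridised to 8 two-colour arrays, and each array held 2 pools of RNA. The 4 comparisons had 2 arrays each, with separate pools of mice and the dyes reversed. Untreated males were set against untreated females (5 mice in each pool). Males killed 3 days after Adeno-Cux2, an adenovirus that carries the liver transcription factor Cux2, were set against males killed 3 days after Adeno-CMV, the control adenovirus (5 and 5 mice on replicate 1, 6 and 6 on replicate 2). Males killed 5 days after Adeno-Cux2 were set against Adeno-CMV males of the same time (6 and 6 mice, and 6 and 7). Females labelled Adeno-Cux2, killed at day 5, were set against females labelled Adeno-CMV (4 and 4 mice, and 4 and 3). These pool sizes are those of the sample descriptions. The series text gives 1 more untreated female, and the description of the female virus arrays states its purpose for males. All groups share the scid background, which lacks mature T and B cells, and all virus-treated groups, the controls included, received adenovirus.

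Haem is made from glycine and succinyl-CoA in a chain of enzymes that begins in the mitochondrion. Alas1 performs the first step in every tissue and in hepatocytes supplies haem to cytochrome P450 enzymes, while Alas2 performs the same step in developing red cells, where globin chains take up the haem. In adult mice red cells are made in the bone marrow and spleen, and the reticulocytes that leave them still carry globin RNA. In whole liver, fewer cells of a type and less RNA per cell cannot be told apart.

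The ratios were log2 values of the first pool over the second, each given with its standard error from a limma model fitted to all probes (n = 2 arrays a comparison). A probe was called at an adjusted p under 0.05 (Benjamini-Hochberg over 33330 probes). The pools are the replicates. The p-values rest on 1 estimate of spread per probe, shared by the 4 comparisons, so the 2 arrays of a comparison can differ by more than the standard error shows. What arrays of the same replicate number share was removed first, since dye and replicate number coincide. The median spot of an array had a signal of 343 to 512 and the median local background was 289 to 342.5, and the number of arrays limits the precision. All 11 probes passed the filter on dim probes, were well above background in every pool and were saturated in none. In untreated mice both Cux2 probes were lower in males (−1.88 ± 0.09 and −1.31 ± 0.07). They were higher in Adeno-Cux2 males than in Adeno-CMV males, by 0.49 ± 0.09 at day 3 and 0.60 ± 0.09 at day 5 on one probe. The other probe was not well above background in Adeno-CMV males. It was at least 1.35-fold higher in Adeno-Cux2 males at day 3 and at least 1.24-fold higher at day 5. This bound comes from the dim pools' own normalised signal and does not allow for error. In females labelled Adeno-Cux2 they were lower, at −0.61 ± 0.09 and −0.33 ± 0.07, so the female pools are named by their labels throughout.

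Of the 11 probes, 4 carry the name Hbb-b1 in the files and an accession that is now Hbb-bt. They are numbered here from the brightest to the dimmest and lie on chromosome 7 of mm8, minus strand, at 103687307 to 103687366, 103687338 to 103687397, 103686419 to 103686478 and 103687624 to 103687683. Probes 1 and 2 overlap, and probes 3 and 4 also list the transcript of Hbb-b2, so the adult beta globin copies are not separated. The Hba-a1 probe, at chromosome 11, 32183775 to 32183956, plus strand, also lists the transcript of its near-identical copy Hba-a2. The 2 Alas1 probes lie on chromosome 9, minus strand, at 106092237 to 106092296 and 106093573 to 106093632. Alas2 lies on chromosome X at 145911166 to 145911225 and Klf1 on chromosome 8 at 87795087 to 87795146, both plus strand, and Slc4a1 on chromosome 11 at 102165032 to 102165091, minus strand. The Ahsp probe is named Eraf in the files, without a position. Exon and UTR annotation of mm8 was not used here.

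The promoters of 3 of these genes, and of Hbb-bs, the other adult beta globin copy in RefSeq, are shown because the alpha and beta globin probes moved together on the 8 arrays while Alas2 followed another pattern. The 250 bases before the RefSeq start on GRCm38.p6 were searched on both strands for the letters AGATAA (bound by Gata1 and related factors), CCACACCC (bound by Klf1), TATAAA and CCAAT, and capitals mark the matches, none of which overlap. The windows are chr11:32283422-32283671 (plus strand) for Hba-a1, chr7:103813924-103814173 (minus strand) for Hbb-bt, chr7:103827929-103828178 (minus strand) for Hbb-bs and chrX:150547167-150547416 (plus strand) for Alas2.
Hba-a1: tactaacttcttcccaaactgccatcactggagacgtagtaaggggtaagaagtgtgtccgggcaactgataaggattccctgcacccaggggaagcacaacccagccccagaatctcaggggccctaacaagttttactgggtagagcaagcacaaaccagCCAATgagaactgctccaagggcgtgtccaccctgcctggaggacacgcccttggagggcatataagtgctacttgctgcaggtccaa
Hbb-bt: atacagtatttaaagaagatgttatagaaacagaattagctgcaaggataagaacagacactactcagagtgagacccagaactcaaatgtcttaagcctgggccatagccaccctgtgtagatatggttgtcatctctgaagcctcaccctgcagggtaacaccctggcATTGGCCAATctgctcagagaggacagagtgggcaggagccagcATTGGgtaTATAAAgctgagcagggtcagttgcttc
Hbb-bs: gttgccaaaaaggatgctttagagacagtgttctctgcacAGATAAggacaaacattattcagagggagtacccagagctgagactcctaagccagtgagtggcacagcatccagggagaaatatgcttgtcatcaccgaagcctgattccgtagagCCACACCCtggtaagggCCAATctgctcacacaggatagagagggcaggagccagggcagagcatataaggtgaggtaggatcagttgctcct
Alas2: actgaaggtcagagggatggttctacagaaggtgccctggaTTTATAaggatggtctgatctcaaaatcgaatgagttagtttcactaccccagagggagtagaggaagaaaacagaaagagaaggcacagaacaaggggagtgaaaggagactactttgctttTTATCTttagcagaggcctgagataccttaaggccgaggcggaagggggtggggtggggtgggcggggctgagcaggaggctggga
The Hba-a1 window held 1 CCAAT, which starts 88 bases before the gene, and the Hbb-bt window held TATAAA at 28 bases and CCAAT at 36, 75 and 80 bases. Only the exact letters were searched. The Hba-a1 window also holds TGATAA and ATATAA, and the Hbb-bs window ATATAA, which stay unmarked. A window without a match can therefore still hold a variant of the site. The Hbb-bs window held AGATAA at 210 bases, CCACACCC at 93 bases and CCAAT at 76 bases. The Alas2 window held AGATAA at 86 bases and TATAAA at 209 bases, both on the opposite strand. Of 32851 promoter windows of this length, 9.99% held AGATAA, 3.20% CCACACCC, 12.4% TATAAA and 33.8% CCAAT. The Klf1 window held a CCAAT at 64 bases and neither of the 2 Alas1 start windows held any of the 4 motifs.

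In males at day 3 the globins and Alas2 were several-fold lower after Adeno-Cux2 than after Adeno-CMV. On the brightest beta globin probe the log2 ratios were −3.06 on replicate 1 and −3.64 on replicate 2, a fit of −3.35 ± 0.12 (10.2-fold lower, adjusted p = 1.32e-05). Hba-a1 had ratios of −2.43 and −3.03 (−2.73 ± 0.12, 6.64-fold lower, adjusted p = 1.62e-05). The other 3 beta globin probes lay between −2.51 and −3.27 on single arrays, so all 5 globin probes were lower on both arrays. The companion probe of Hba-a2 gave −2.44 and −2.83. Of 6 globin genes measured 4 were called lower, beside 20.4% of all genes, and the 4 include the near-identical copies Hba-a1 and Hba-a2. The last was Hbq1a, theta globin, which was not well above background in either Adeno-Cux2 pool. By the dim pools' own signal it was at least 1.19-fold lower, without allowance for error. Alas2 had ratios of −2.77 and −3.02 (−2.90 ± 0.16, 7.44-fold lower, adjusted p = 3.38e-05). Apart from Hbq1a, whose call was lost under 5 alternatives, these calls held under each one that was run.

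The dimmer erythroid probes were lower at day 3 as well. Klf1, which activates beta globin transcription, had ratios of −1.07 and −0.80 (−0.93 ± 0.07, adjusted p = 7.07e-05). Ahsp, which binds free alpha globin, had −0.82 and −0.78 (−0.80 ± 0.09, adjusted p = 0.000438). Slc4a1, which exchanges chloride and bicarbonate across the red cell membrane, had −0.43 and −0.79 (−0.61 ± 0.07, adjusted p = 0.000406). Both arrays had the same direction for each of the 3 genes, and none of these calls was lost under an alternative. Their raw signals of 351.5 to 553 lay close above local backgrounds of 311 to 346, and the size depended on how background was handled: across alternatives the ratio ran between −0.42 and −1.57 for Klf1, −0.26 and −1.66 for Ahsp and −0.18 and −1.66 for Slc4a1.

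Alas1, the form of the enzyme in hepatocytes, moved the other way at day 3. Its brighter probe had ratios of 0.79 and 0.34 (0.56 ± 0.11, 1.48-fold higher, adjusted p = 0.00639) and the other 0.99 and 0.35 (0.67 ± 0.16, 1.59-fold higher, adjusted p = 0.0142). Both probes had the smaller ratio on replicate 2, and without the replicate 1 array both calls were lost (adjusted p = 0.135 and 0.273). The call of the dimmer probe was also lost when its own slide was fitted alone (adjusted p = 0.0526). In all, 11 of 11 probes were called at day 3, 2 higher and 9 lower. Among all probes tested 42.9% were called, 22.8% higher and 20.1% lower. When each array was only centred on its median, 8793 probes were called higher and 3906 lower, against 7613 and 6696 with loess, and the 11 probes kept their directions.

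**Figure D1:**
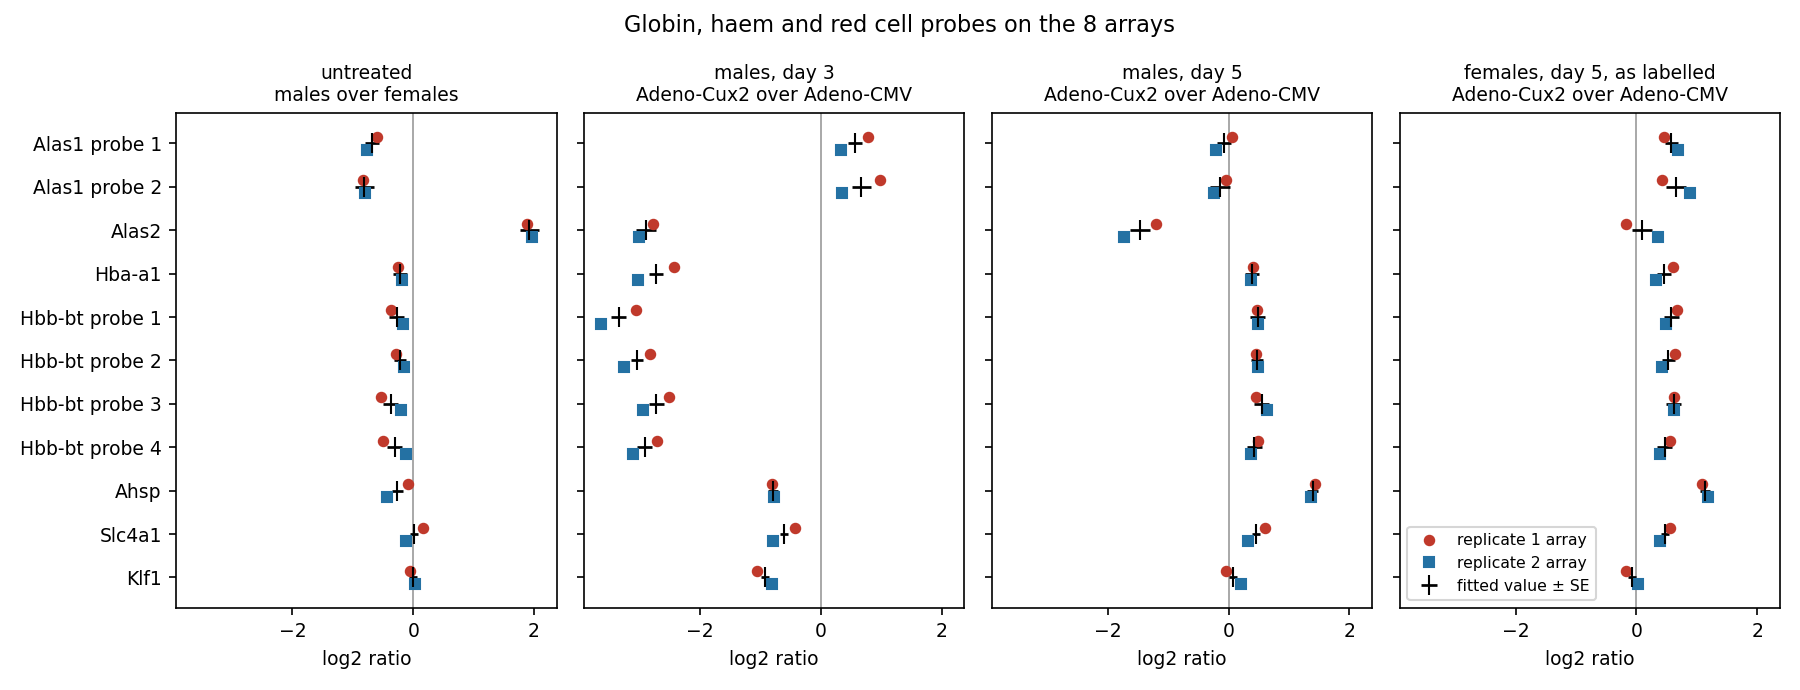
Log2 ratios (x axis) of the 11 probes (rows) in the 4 comparisons (panels). Circles and squares are the replicate 1 and replicate 2 arrays and black marks are fitted values ± SE. At day 3 the 5 globin probes and Alas2 lie between −2.43 and −3.64 on single arrays, and the 2 Alas1 probes lie above 0.

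By level, the day 3 Adeno-Cux2 males stood apart from all other pools for the globins. Normalised log2 intensities of the brightest beta globin probe were 13.34 and 12.92 in Adeno-Cux2 males at day 3 and 15.15 to 16.56 in the other 14 pools. Hba-a1 was at 12.88 and 12.62 in Adeno-Cux2 males at day 3 and 14.60 to 15.65 in the other 14. Klf1 (7.09 and 7.11, against 7.55 to 9.17) and Slc4a1 (6.59 and 6.37, against 6.62 to 7.30) were likewise below every other pool. These 4 genes had their lowest 2 pools in the same group. Beta globin probe 1 was highest of all groups in Adeno-CMV males at day 3 (16.40 and 16.56). In Adeno-CMV males at day 5 it was at 15.27 and 15.15, below untreated males (15.74 and 15.87). Adeno-Cux2 males at day 5 (15.74 and 15.64) overlapped untreated males. The globin ratios thus changed sign with levels in both Adeno-Cux2 and Adeno-CMV males. Ahsp, at 6.66 and 6.58 in Adeno-Cux2 males at day 3, overlapped the untreated pools (6.52 to 7.05) and had its highest level at day 5 (8.31 and 8.11 in Adeno-Cux2 males, 8.35 and 8.07 in females labelled Adeno-Cux2). These levels come from separate arrays on 2 slides that were scaled to each other, so small differences between slides cannot be told apart from the groups.

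At day 5 the male globin difference had the opposite sign and was small. The 4 beta globin probes had ratios between 0.46 and 0.48 on replicate 1 and between 0.37 and 0.64 on replicate 2. Probes 1, 2 and 3 were called higher in Adeno-Cux2 males (0.48 ± 0.12, 0.47 ± 0.10 and 0.55 ± 0.12, adjusted p = 0.0393, 0.023 and 0.0253), while probe 4 (0.42 ± 0.12, adjusted p = 0.0626) and Hba-a1 (0.41 and 0.37, 0.39 ± 0.12, adjusted p = 0.0644) missed the threshold. All 5 globin probes were above 0 on both arrays. The 3 globin calls were lost without background subtraction and with the software's own ratios (adjusted p = 0.0676 to 0.152). They were also lost when either male day 5 array was left out, and that of probe 1 with an offset of 10 as well (adjusted p = 0.0568) and without either female array (0.0561). Hba-a1 passed under 5 alternatives (adjusted p = 0.0144 to 0.0456) and probe 4 under 3 (0.0112 to 0.0275).

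Ahsp was the most raised of the genes at day 5 in males, with ratios of 1.42 and 1.36 (1.39 ± 0.09, 2.62-fold higher, adjusted p = 0.000127). Slc4a1 rose too, at 0.60 and 0.31 (0.46 ± 0.07, adjusted p = 0.00385), a call that was lost without either male day 5 array (adjusted p = 0.117 and 0.107). Klf1 had −0.046 and 0.20 (0.078 ± 0.066, adjusted p = 0.502). The Ahsp call held under every alternative, with a size between 0.58 and 2.07, and the Slc4a1 ratio ran between 0.14 and 0.96.

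Alas2 did not follow the globins at day 5. It was lower in Adeno-Cux2 males on both arrays, at −1.20 and −1.74 (−1.47 ± 0.16, 2.77-fold lower, adjusted p = 0.00127), under every alternative. The 2 Alas1 probes had fits of −0.075 ± 0.112 and −0.14 ± 0.16 (adjusted p = 0.727 and 0.631), within the spread between arrays. In all, 6 of 11 probes were called in males at day 5, 5 higher and 1 lower, while 16.8% of all probes were called, 12.0% higher and 4.79% lower.

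The change between the male times was itself tested, as the day 5 ratio minus the day 3 ratio. It was 3.83 ± 0.17 for beta globin probe 1, 3.12 ± 0.16 for Hba-a1, 2.19 ± 0.12 for Ahsp, 1.43 ± 0.23 for Alas2, 1.07 ± 0.09 for Slc4a1 and 1.01 ± 0.09 for Klf1 (adjusted p = 0.000756, 0.0009, 0.000972, 0.012, 0.00283 and 0.00295). For Alas1 it was −0.64 ± 0.16 on probe 1 and −0.81 ± 0.23 on probe 2 (adjusted p = 0.0461 and 0.0656). Thus 10 of 11 probes differed between the times, 9 higher and 1 lower at day 5, beside 12.1% of all probes (7.25% higher, 4.81% lower). The Alas2 call was lost when any of the 4 arrays of these 2 comparisons was left out and with the software's ratios (adjusted p = 0.0508 to 0.113), and the Alas1 call under 10 alternatives. Those of Slc4a1 and Klf1 were lost without male day 5 replicate 2 (adjusted p = 0.0523 and 0.0575). With median centring alone, 961 of all probes were called higher and 1875 lower, against 2416 and 1602 with loess. The male day 5 arrays lay on one slide and the male day 3 arrays on the other, so slide and time cannot be told apart here.

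**Figure D2:**
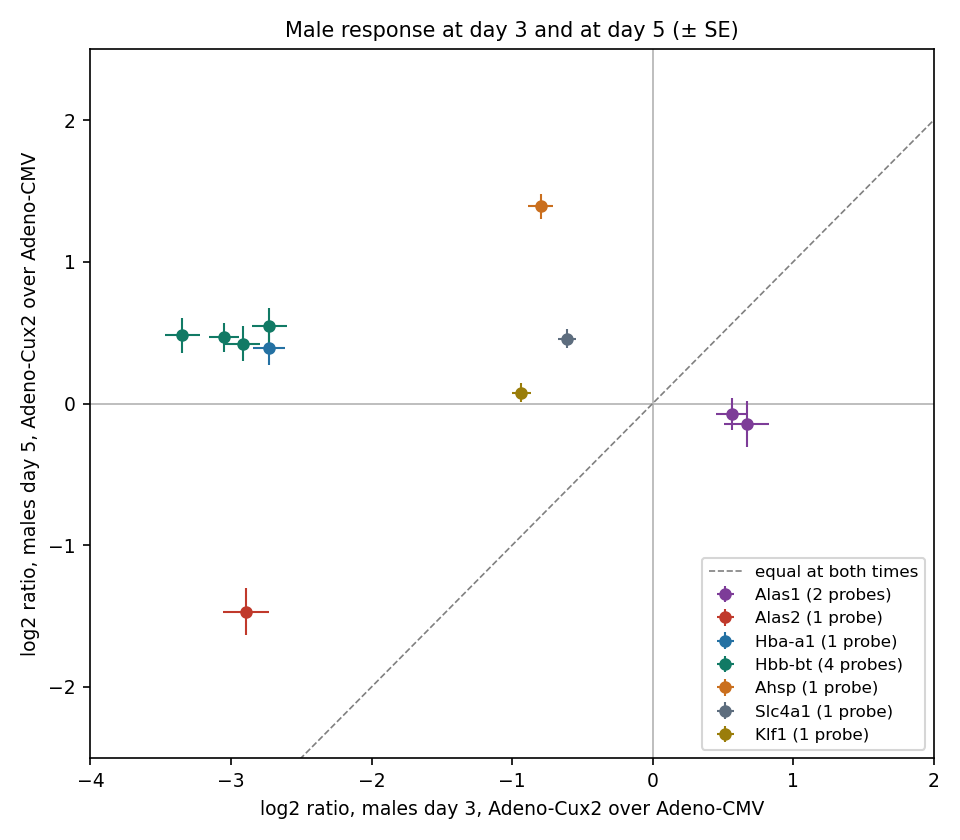
Log2 ratios of Adeno-Cux2 over Adeno-CMV males at day 3 (x axis) and at day 5 (y axis), with SE on both axes; colours are genes and the dashed line marks equal values. The globin, Ahsp and Slc4a1 probes lie left of 0 at day 3 and above 0 at day 5, Alas2 lies below 0 at both times, and the Alas1 probes lie right of 0 at day 3.

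In females labelled Adeno-Cux2 the globins at day 5 were higher than in females labelled Adeno-CMV. The beta globin probes had ratios between 0.56 and 0.67 on replicate 1 and between 0.39 and 0.62 on replicate 2. All 4 were called higher, with fits of 0.47 to 0.62, and so was Hba-a1, at 0.61 and 0.32 (0.46 ± 0.12, adjusted p = 0.0348). Ahsp had 1.09 and 1.18 (1.14 ± 0.09, 2.20-fold higher, adjusted p = 0.000516) and Slc4a1 had 0.55 and 0.40 (0.47 ± 0.07, adjusted p = 0.00397). Each was higher on both arrays. Klf1 had −0.17 and 0.035 (−0.065 ± 0.066, adjusted p = 0.575).

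The Alas genes had other values in females than in males at day 5, though neither difference was called when tested directly. Alas2 had ratios of −0.18 and 0.36 in females (0.091 ± 0.163, adjusted p = 0.772), with opposite signs on the 2 arrays. Alas1 was higher in females labelled Adeno-Cux2, at 0.46 and 0.69 on probe 1 (0.58 ± 0.11, adjusted p = 0.0142) and 0.43 and 0.88 on probe 2 (0.65 ± 0.16, adjusted p = 0.0344). In all, 9 of 11 probes were called, all 9 higher, beside 17.4% of all probes (11.2% higher, 6.20% lower). The globin calls were lost with no background subtraction and with the software's ratios (adjusted p = 0.0527 to 0.144), as was Alas1 (0.055 to 0.123), while Ahsp kept its call throughout. Without female replicate 2, 1 of the 11 probes was called, and without replicate 1, 4 were.

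Tested directly, no probe differed between the female and male day 5 responses in limma, where 0.201% of all probes did. The female minus male difference was 1.56 ± 0.23 for Alas2 (adjusted p = 0.0633), 0.65 ± 0.16 and 0.80 ± 0.23 for Alas1 (adjusted p = 0.192 and 0.264) and −0.26 ± 0.12 for Ahsp (adjusted p = 0.585). For the globins it was 0.049 to 0.093 with standard errors of 0.146 to 0.176. The females lay on another slide than the day 5 males, so slide and sex cannot be told apart. Among the 11 probes, 3 had an unadjusted p under 0.05 and none passed after adjustment. Alas2 did pass in the fit with no dye term and in the fit without female replicate 1. The contrast rests on the female labels, which the Cux2 probes go against. As labelled, the globin, Ahsp and Slc4a1 fits had the same sign in both sexes, and those of Alas1, Alas2 and Klf1 did not. Whether the labels hold was not tested. With the female labels exchanged, an alternative chosen after seeing the data, 8 of the 11 probes were called, 1 higher and 7 lower, beside 27.8% of all probes. Exchanging the labels turns the sign of the female ratios. The 7 lower probes had ratios of the same sign in both sexes as labelled, so their large difference arises by construction. The female minus male difference was then 1.38 ± 0.23 for Alas2, −0.85 ± 0.16 for Hba-a1, −1.06 ± 0.17 for beta globin probe 1 and −2.53 ± 0.12 for Ahsp (adjusted p = 0.00477, 0.00828, 0.00447 and 2.60e-05).

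Untreated males and females differed in both Alas genes and in opposite directions. Alas2 was higher in males, at 1.88 and 1.97 on the 2 arrays (1.92 ± 0.16, 3.80-fold, adjusted p = 0.000923), a call kept under every alternative. Alas1 was lower in males, at −0.60 and −0.76 on probe 1 (−0.68 ± 0.11, 1.60-fold, adjusted p = 0.014) and −0.82 and −0.80 on probe 2 (−0.81 ± 0.16, 1.75-fold, adjusted p = 0.0264). Both Alas1 calls were lost with no background subtraction, with the software's ratios and without either untreated array (adjusted p = 0.055 to 0.293), with ratios that stayed between −0.67 and −0.89.

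None of the other 8 probes was called between the untreated sexes. The 5 globin probes had ratios between −0.53 and −0.11 on single arrays and fits of −0.37 to −0.21 (adjusted p = 0.115 to 0.286). Ahsp had −0.092 and −0.44 (−0.26 ± 0.09, adjusted p = 0.109), Klf1 had −0.046 and 0.031, and Slc4a1 had 0.16 and −0.12. The last 2 changed sign between the arrays. In all, 3 of 11 probes were called, 1 higher and 2 lower in males, beside 9.78% of all probes (4.71% higher, 5.07% lower).

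Levels of Alas2 over the 16 pools, as normalised log2 intensity, spanned 10.09 to 13.42. They were highest in Adeno-CMV males at day 3 (13.36 and 13.11) and untreated males (12.93 and 13.42), which overlapped. Next came Adeno-CMV males at day 5 (11.61 and 12.58) and untreated females (11.05 and 11.46), each below the group before. The lowest were Adeno-Cux2 males at day 5 (10.42 and 10.85) and at day 3 (10.58 and 10.09), females labelled Adeno-Cux2 (10.12 and 10.53) and females labelled Adeno-CMV (10.30 and 10.17). Each of these 4 groups overlapped its neighbour in that order. Adeno-Cux2 males thus lay below untreated females at both times, and their ranges overlapped or adjoined those of virus-treated females.

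Alas1 had its highest level in untreated females (15.39 and 15.64 on probe 1), above untreated males (14.79 and 14.88). The male day 5 pools (14.69 and 14.71 after Adeno-Cux2, 14.63 and 14.93 after Adeno-CMV) and the Adeno-Cux2 males at day 3 (14.80 and 14.46) overlapped untreated males or each other. Adeno-CMV males at day 3 (14.01 and 14.12) and females labelled Adeno-CMV (13.92 and 13.78) were the 2 lowest groups, below females labelled Adeno-Cux2 (14.38 and 14.48). The higher Alas1 ratios at male day 3 and female day 5 therefore went with low levels in Adeno-CMV males at day 3 and in females labelled Adeno-CMV.

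**Figure D3:**
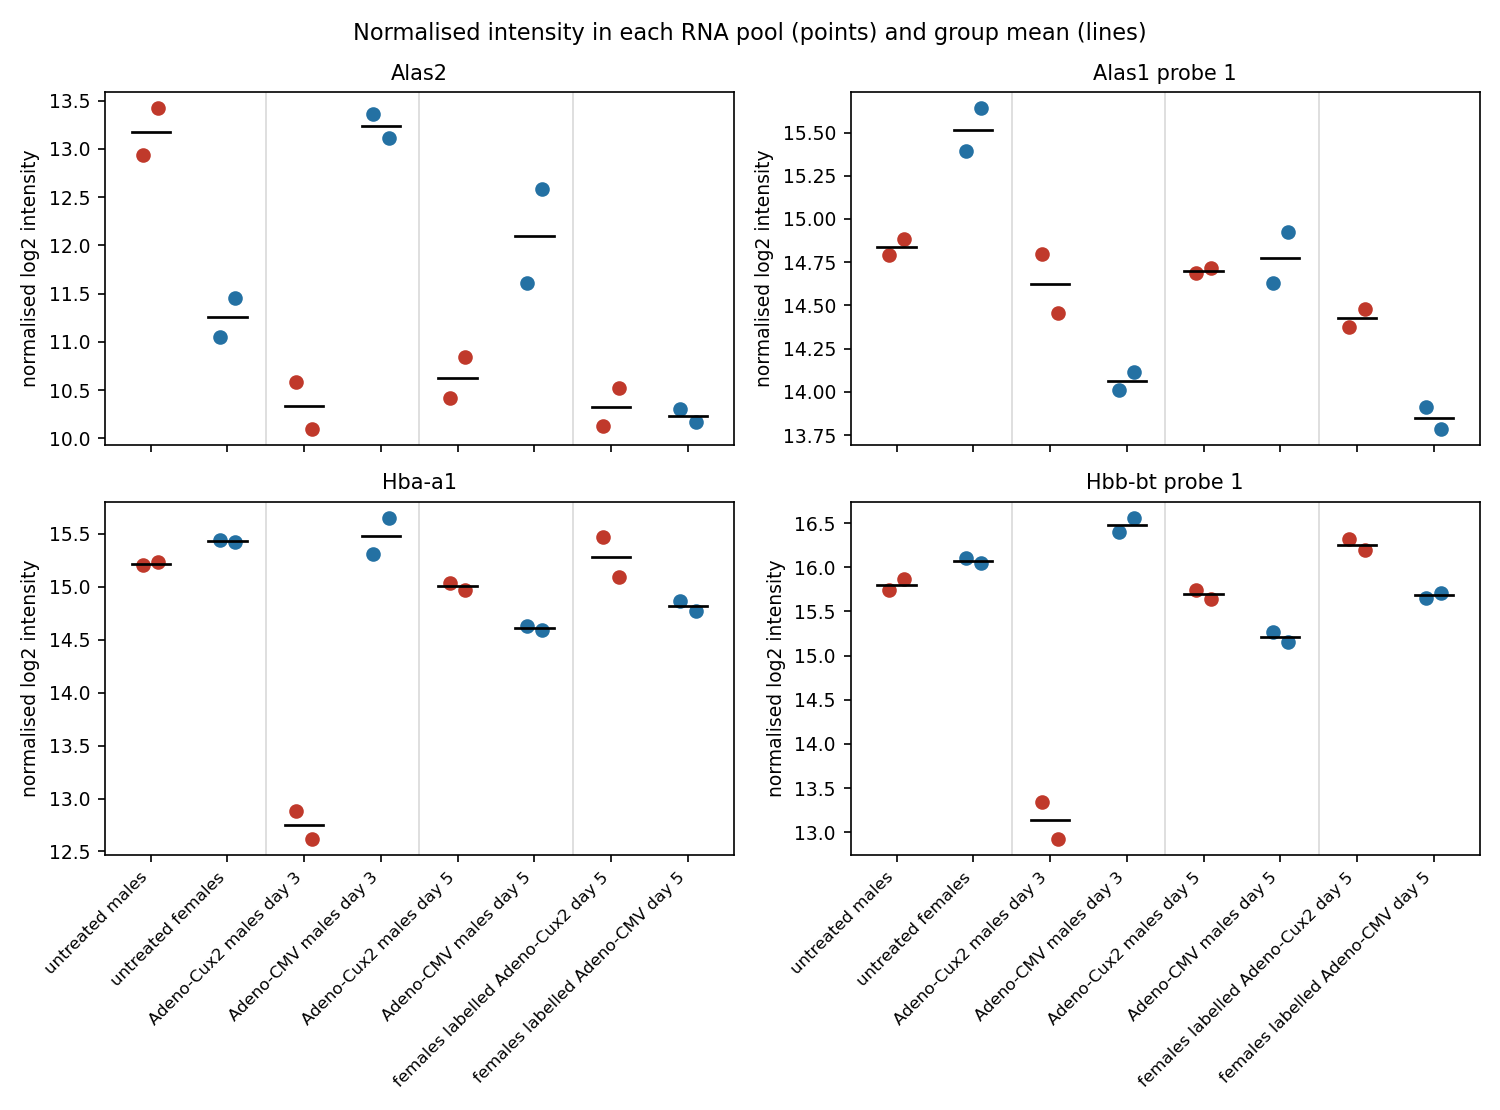
Normalised log2 intensity (y axis) of Alas2, Alas1, Hba-a1 and beta globin in each of the 16 RNA pools (points, 2 a group) with group means (lines); red marks Adeno-Cux2 pools and untreated males, blue Adeno-CMV pools and untreated females. The day 3 Adeno-Cux2 pools are lowest for both globins, while Alas2 is at 10.09 to 10.85 in Adeno-Cux2 males at both times and in females of either label.

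Most of the haem synthesis genes were called lower at day 3. Of 13 measured haem synthesis genes, 10 were called lower, Alas2 among them, and Alas1 was called higher, with a list median of −0.45, beside 20.4% of all genes called lower, 23.9% higher and a median over all genes of −0.0024. Abcb10, a mitochondrial transporter of the inner membrane that red cell precursors need, had ratios of −2.22 and −1.68 (−1.95 ± 0.15, adjusted p = 9.13e-05). Abcb6, a porphyrin transporter, had −0.71 and −0.61 (−0.66 ± 0.09) and Slc25a38, the mitochondrial glycine carrier, −0.63 and −0.63 (−0.63 ± 0.13). The enzymes Cpox, Fech, Ppox, Uros and Urod were lower as well, with fits of −0.56 to −0.32 (these 5 were named after their values were seen). The call of Slc25a38 was lost under 3 alternatives, and those of Abcb10 and Abcb6 under none.

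In males at day 5, 4 of the 13 haem synthesis genes were lower and none was higher, beside 4.83% of genes lower and 13.8% higher: Alas2, Abcb10 (−1.46 and −0.90, −1.18 ± 0.15), Cpox (−0.36 ± 0.08) and Abcb6 (−0.35 ± 0.09). In females labelled Adeno-Cux2, Alas1 and Alad (0.46 ± 0.12), the enzyme after Alas1, were higher and Abcb10 was lower (−0.54 ± 0.15), beside 12.7% of genes higher and 6.26% lower. In untreated mice Alas2 was called higher and Alas1 lower in males, beside 4.83% and 6.04% of genes, and the other 11 were not called. Of these calls that of Abcb6 at male day 5 was lost under 11 alternatives, those of Abcb10 and Alad in females under 11 and 9, and that of Cpox under 3. Abcb10 at male day 5 lost its call without the replicate 1 array of that comparison.

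Other red cell genes were called in both directions at day 3, beside 20.4% of all genes called lower and 23.9% higher. Of 16 membrane genes 6 were lower and 1 higher (list median −0.069): Add2 (−0.85 ± 0.08), of the spectrin skeleton, and Gypc (−0.70 ± 0.09), a glycophorin, had the largest changes beside Slc4a1. Of 15 other erythroid genes 8 were lower and 3 higher, led by Cd24a, an antigen of immature blood and progenitor cells (2.98 and 2.82, 2.90 ± 0.13), Car1, the red cell carbonic anhydrase (−2.41 and −2.33, −2.37 ± 0.07), Icam4 (−0.91 and −1.09) and Mgst3 (0.98 ± 0.14). Of 9 erythroid transcription factors Klf1 and Zfpm1 (−0.67 ± 0.07), the Gata1 partner, were lower, and Tal1 (0.48 ± 0.09) and Gfi1b (0.31 ± 0.06) higher, counts near the shares of all genes. The calls of Tal1 and Gfi1b were lost under 2 alternatives each, and the others named kept theirs.

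In males at day 5, 6 of the 16 membrane genes were higher and 1 lower, beside 13.8% and 4.83% of all genes. Rhd, a blood group antigen (0.82 ± 0.06), rose beside Slc4a1, and Epb42 was at least 1.41-fold higher since it was not well above background in either Adeno-CMV pool. Among 15 other erythroid genes 4 were higher, with Cd24a at 2.44 ± 0.13 and Hemgn at least 1.97-fold higher, and 4 lower, with Tfrc, the transferrin receptor, at −0.72 ± 0.17. In females labelled Adeno-Cux2 5 membrane genes were higher, among them Rhd (0.52 ± 0.06) and Kel (at least 1.40-fold), and 2 lower, with Gypc at −0.64 ± 0.09, beside 12.7% and 6.26% of all genes. Cd24a was higher there too (2.55 ± 0.13), and Car1 was lower (−0.91 ± 0.07). The membrane list medians were 0.20 in males and 0.083 in females. The calls of Epb42 and Tfrc in males and of Rhd, Kel and Gypc in females were lost under 1 to 6 alternatives.

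Among genes that break down or scavenge haem, Hmox1, haem oxygenase, was higher after Adeno-Cux2 in males at day 3, at 1.12 and 0.84 (0.98 ± 0.07, adjusted p = 8.43e-05), and at day 5, at 1.12 and 1.07 (2.14-fold higher, adjusted p = 0.000145). In females labelled Adeno-Cux2 it had 0.33 and 0.11 (0.22 ± 0.07, adjusted p = 0.0825). The female minus male difference of Hmox1 at day 5 was −0.87 ± 0.10 (adjusted p = 0.042), a call lost under 10 alternatives, and it was −1.32 ± 0.10 with the female labels exchanged. At day 3, 4 of 10 breakdown genes were higher and 3 lower, beside 23.9% and 20.4% of all genes, among them Flvcr1, a haem exporter (0.61 ± 0.16), Hp, haptoglobin (1.20 and 0.015, 0.61 ± 0.14), and Cd163, its receptor (−0.63 ± 0.08). Of 12 iron genes at day 3, Cp, ceruloplasmin (1.12 ± 0.10), and Hamp, hepcidin (1.29 and 0.24, 0.77 ± 0.09), were higher, and Tfr2 (−0.94 ± 0.07), Bmp6 (−0.85 ± 0.08) and Hfe (named after its values were seen) were lower. These 2 higher and 3 lower genes of 12 are near the shares of all genes. The arrays of Hp and Hamp differed widely. The calls of Hp, Hamp and Flvcr1 were lost under 3, 1 and 2 alternatives. In males at day 5 Hamp (0.59 ± 0.09) and in females labelled Adeno-Cux2 Hamp (0.57 ± 0.09) were again higher, both with calls lost under several alternatives. In untreated males Hamp2, a second hepcidin gene, was lower than in females (−3.29 and −2.69, −2.99 ± 0.27, adjusted p = 0.0012).

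Of 8 genes known to regulate Alas1 or its enzyme partners, 4 were lower and none higher in untreated males, beside 6.04% and 4.83% of all genes. They were Por, the P450 reductase (−1.21 ± 0.12), the coactivator Ppargc1a (−0.90 ± 0.13), the xenobiotic receptor Nr1i2 (−0.59 ± 0.08) and Foxo1 (−0.48 ± 0.11). At male day 3, where 23.9% of all genes were higher and 20.4% lower, Por was higher (0.58 ± 0.12), and the repressor Nr1d1 (−1.28 and −0.38, −0.83 ± 0.16), Rxra (−0.66 ± 0.06) and Nr1i3 (−0.53 ± 0.09) were lower. Por was higher at day 5 in males (0.72 ± 0.12) and in females labelled Adeno-Cux2 (0.56 ± 0.12), and Nr1i3 was higher in males (0.49 ± 0.09). At day 5 13.8% of all genes were higher in males and 12.7% in females labelled Adeno-Cux2. Of these calls, those of Por in untreated mice and Rxra at day 3 were kept under every alternative, and each of the others was lost under at least 1.

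**Figure D4:**
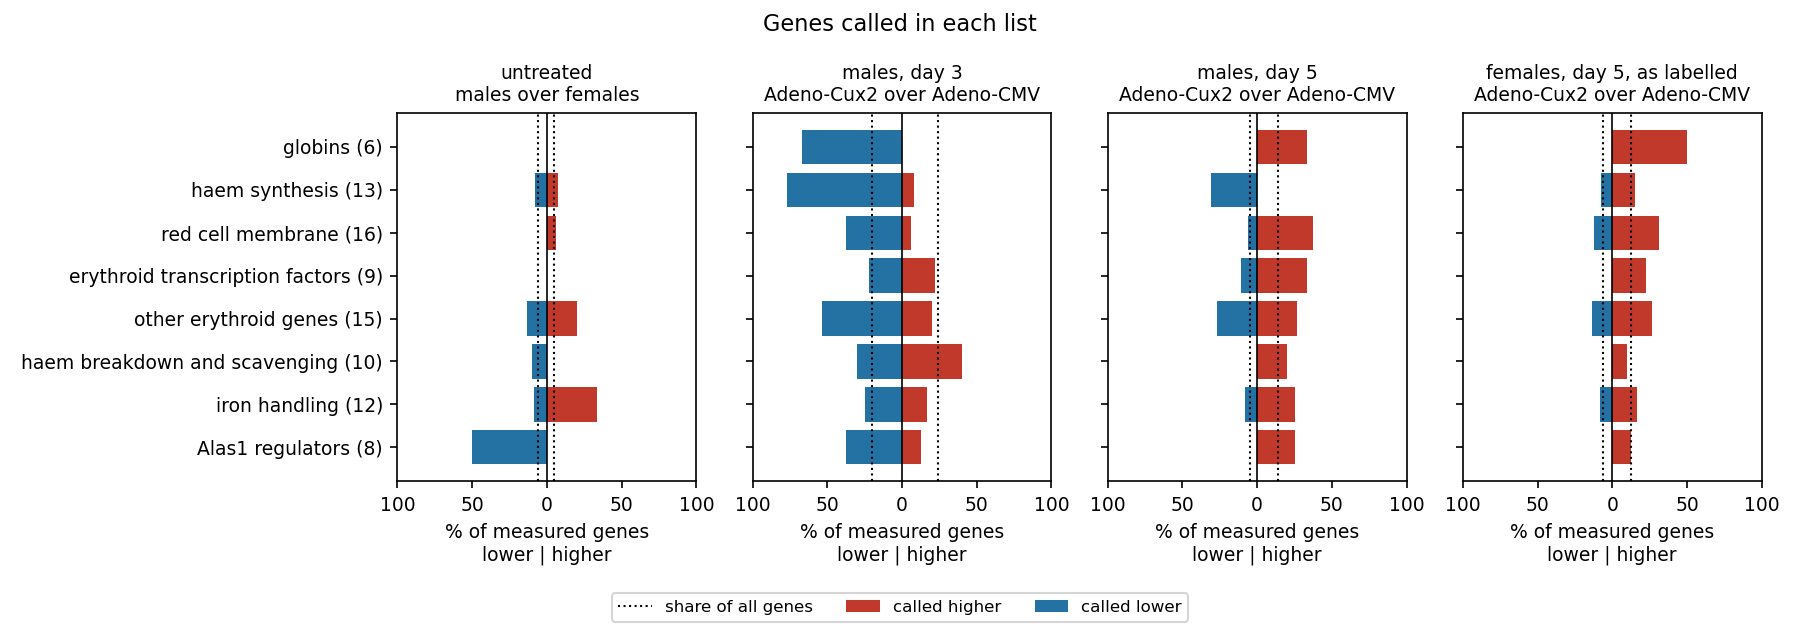
Share of the measured genes of each list (rows, number measured in brackets) called higher (red, right) or lower (blue, left) in the 4 comparisons; dotted lines mark the share of all genes called in that direction. At day 3, 10 of 13 haem synthesis genes and 4 of 6 globins are called lower.

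Markers of other blood cells moved with these comparisons, and their part in the results was not tested. The counts below stand beside 23.9% of all genes called higher and 20.4% lower at male day 3. At day 5, 13.8% of all genes were higher in males and 12.7% in females labelled Adeno-Cux2. Of 9 neutrophil markers 9 were higher in Adeno-Cux2 males at both times and in females labelled Adeno-Cux2, and their summed intensity was 20729 to 23809 in Adeno-Cux2 males and 6180 to 8960 in Adeno-CMV males at day 3. At day 5 it was 54747 to 58604 in Adeno-Cux2 males and 6441 to 8049 in Adeno-CMV males. In females labelled Adeno-Cux2 it was 89403 to 110476, against 27095 to 32057 in females labelled Adeno-CMV. In each pair the range of the pools labelled Adeno-Cux2 lay above that of the pools labelled Adeno-CMV. Of 8 platelet markers 8 were higher at day 3 and 5 at day 5, both in Adeno-Cux2 males and in females labelled Adeno-Cux2, with day 3 sums of 16086 to 18021 in Adeno-Cux2 males and 4816 to 7192 in Adeno-CMV males. Of 8 Kupffer cell markers 6 were lower at day 3 (10170 to 10233 in Adeno-Cux2 males and 15161 to 16582 in Adeno-CMV males over 7 genes) and 7 higher in males at day 5 (49167 to 56964 in Adeno-Cux2 males and 18239 to 23098 in Adeno-CMV males). At day 5, 4 Kupffer cell markers were higher in females labelled Adeno-Cux2. Of 5 proliferation markers 4 were higher in males and 5 in females at day 5, and 5 were higher at day 3 (57576 to 61220 in Adeno-Cux2 males, against 39415 to 45413 in Adeno-CMV males). No marker of these lists was below background in every pool.

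The sums of 8 exocrine pancreas markers differed within groups: 1227 and 31777 in untreated males, 1085 and 15259 in Adeno-Cux2 males at day 3, and 215933 and 1078 in females labelled Adeno-Cux2, beside 921 to 9090 in the other pools. No marker of that list was called in the 4 comparisons. On the replicate 1 array of male day 3, where those sums were 1085 and 921, beta globin probe 1 had a ratio of −3.06 and Alas2 of −2.77. On the replicate 2 array, where the sums were 15259 and 1870, the ratios were −3.64 and −3.02. Any part of pancreas RNA in these ratios was not tested. Of 4 hepatocyte markers measured 1 was called higher and 1 lower at day 3, near the shares of all genes (23.9% and 20.4%). Their sums were 497130 to 855165 in Adeno-Cux2 males and 520699 to 789004 in Adeno-CMV males.

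Across the 8 arrays the globin probes correlated with each other at Pearson r of 0.992 to 1.00, a description over arrays that share dyes and slides. Globin ratios were −3.64 to −2.43 on the male day 3 arrays and −0.53 to 0.67 on the others. Every r with the globins therefore rests largely on the day 3 arrays. The globin probes correlated at 0.94 to 0.95 with Slc4a1, 0.91 to 0.92 with Klf1, 0.83 to 0.87 with Ahsp, 0.54 to 0.61 with Alas2 and −0.35 to −0.26 with Alas1. Among 16760 called probes, the 5 names most like the mean globin pattern were ENSMUST00000025024, Gpat2, Hba-a2, Dcxr and Izumo4 (r of 0.983 to 0.997). Those most like Alas2 were NAP049879-1, Cabyr, Cul2, Ttc7b and Nmnat1 (0.991 to 0.996), and those most like Alas1 were Cited4, Stxbp2, Ocstamp, Acmsd and Itga6 (0.963 to 0.976). Of these, Cul2, a ubiquitin ligase scaffold, had mean ratios of 0.48 in untreated mice, −0.87 at male day 3, −0.45 at male day 5 and −0.10 in females.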

How the data were processed

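Liver RNA pools were measured on 8 two-colour Agilent 4x44k v1 arrays, read with Feature Extraction 9.5.3.1 (untreated and male day 5, 1 slide) or 10.7.1.1 (female day 5 and male day 3, the other), per the file headers. Each spot's median brightness and local background were deposited as intensity, not normalized. The deposited log10 ratios are the software's red over green, background-subtracted and dye-normalized, per the file headers, and the series matrix holds the same values with the sign turned on replicate 2. The deposited spot flags are 0 or 1.

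The median signals were background-corrected (normexp, offset 50) and loess-normalized in limma 3.58.1 (R 4.3.3), with control and outlier spots at weight 0. Ratios were turned to Adeno-Cux2 over Adeno-CMV or male over female. A probe was kept (33330, 22220 genes) where both arrays of any comparison had it well above background in a channel. One limma model had 4 coefficients and a dye term, with 3 residual degrees of freedom (prior 3.9). Dye and replicate number coincide, so the dye term is also the replicate block. Arrays of the same number deviated together at r of −0.072 to 0.30 over 6 pairs. Because dye and number coincide, this cannot show whether the numbers pair the pools. Pool levels are Aquantile-normalized log2 channel intensities. A level of a pool not well above background was given as a bound from the lowest signal among probes well above background on that array, or the probe's own if higher. For the genes given here as at least a fold, the bound was the probe's own signal. Each such fold is thus the fitted value, without allowance for its error. Alternatives were other background, normalization, filter, variance and probe rules, the slide as block, and each array left out. The female labels exchanged were added after seeing the data.

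The genes and lists were chosen with earlier results of these data known. Named list genes are at most 4 called genes a list and comparison with the largest ratios, some of which are not reported here, besides Hfe and 5 haem enzymes named after their values were seen, and the 5 names most correlated with each pattern. The script was tested on simulated data. Names came from RefSeq on GRCm38.p6, and array positions are on mm8 per the file headers. Figures used matplotlib 3.10.9.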

Additional observations from a re-analysis of the deposited data

Results flagged for a closer look

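The male responses at day 5 and day 3 differed by the test of the difference for 10 of the 11 probes. The day 5 minus day 3 differences in log2 ratio were 3.83, 3.52, 3.28 and 3.34 for beta globin (Hbb-bt) probes 1 to 4, 3.12 for Hba-a1, 2.19 for Ahsp, 1.43 for Alas2, 1.07 for Slc4a1, 1.01 for Klf1 and −0.64 for Alas1 probe 1. For the globins, Ahsp and Slc4a1 the sign turned between the times, while Alas2 was lower at both. Slide and time cannot be told apart in this contrast.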

How the results depend on the processing

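The day 3 calls of the globins, Alas2, Klf1, Ahsp and Slc4a1, the Alas2 calls in untreated mice and males at day 5, and the Ahsp calls at day 5 were kept under every alternative run. Over the 11 probes and all comparisons and alternatives, 1092 results kept direction and side of the threshold, 85 lost the call, 17 gained it and 25 turned sign. The number of the 11 probes called moved past 1.5 times as follows, and the cause was not tested. With no background subtraction and with the software's ratios it was 1 in untreated mice, 3 in males at day 5 and 2 in females. With 1 probe per gene only 7 of these probes were tested, and 5 of 7 were called in females and 7 of 7 at male day 3. Those counts are lower because fewer probes were tested. With no dye term, the fit without the replicate block, 1 probe differed between the female and male day 5 responses, and the block changed no other count past 1.5 times. Leaving out each array gave 1 to 3 in untreated mice, 2 to 8 in males at day 5, 1 to 9 in females, 9 to 11 at male day 3, 0 to 1 for female minus male and 6 to 11 for day 5 minus day 3.

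Signs turned in the following cases. Klf1 in untreated mice was 0.0072 with offset 10, 0.038 with median centring and 0.053 with the software's ratios. Slc4a1 in untreated mice was −0.0040 with no background subtraction and −0.051 with the software's ratios. Klf1 in males at day 5 was −0.049 with the software's ratios. For female minus male at day 5, Slc4a1 was −0.036 with offset 10 and −0.063 with the software's ratios. Over the fits that left out 1 array of the comparison, Klf1 ranged over −0.087 to 0.072 and beta globin (Hbb-bt) probe 4 over −0.61 to 0.00066 in untreated mice (adjusted p = 0.0204 at the first, without replicate 2), and Alas2 over −0.29 to 0.48 in females. In the same way female minus male at day 5 ranged over −0.060 to 0.092 for Slc4a1, −0.012 to 0.11 for Hbb-bt probe 4, −0.0088 to 0.19, −0.035 to 0.16 and −0.036 to 0.18 for Hbb-bt probes 1, 2 and 3, and −0.046 to 0.20 for Hba-a1. With the female labels exchanged, chosen after seeing the data, 8 probes differed between female and male at day 5. For the globins, Ahsp and Slc4a1 this arises by construction, since their ratios had the same sign in both sexes as labelled. The difference turned to −1.06, −0.997, −1.17 and −0.90 for Hbb-bt probes 1 to 4, −0.85 for Hba-a1, −0.93 for Slc4a1 and −0.50 and −0.51 for Alas1 probes 1 and 2, by construction, since the female ratios change sign. Signal over background limits Ahsp, Slc4a1 and Klf1, whose sizes moved most with the background step. The slide block had an estimated correlation of 0. Each comparison lay wholly on 1 slide, so this fit could not show a slide effect, and its counts were those of the main fit. Calls kept under it gain nothing from it.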
